A study of Homo sapiens with 16 samples.

Results

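The polyamine metabolism genes are the enzymes that make and break down putrescine, spermidine and spermine, together with the antizymes and the antizyme inhibitor that control the first enzyme. The 10 genes ODC1, AMD1, SRM, SMS, SAT1, SMOX, PAOX, OAZ1, OAZ2 and AZIN1 were chosen by name, by a rule that uses no measured value but was set with earlier results of these data known. They were found through their Ensembl identifiers among 58787 rows of the count table. All 10 passed the filter on low counts that left 14193 genes for testing. They were measured in IMR32, an established human neuroblastoma cell line with amplified MYCN. Cells received a non-targeting siRNA (siNTC) or 1 of 3 siRNAs against TPX2, called si45, si46 and si47, and the table's column headers give a time of 48 h. TPX2 encodes a spindle protein that activates the kinase AURKA, and the series title places it in a program of eIF4A-dependent translation in MYCN-driven neuroblastoma. Each group had 4 replicates, giving 16 libraries of 1 cell line. Nothing in the sources used here says whether replicates came from separate cultures, so p-values measure the spread between these libraries, which may be technical.

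Polyamines are small, positively charged molecules that bind nucleic acids and that dividing cells need for growth and translation. Ornithine decarboxylase (ODC1) makes putrescine, S-adenosylmethionine decarboxylase (AMD1) supplies the aminopropyl donor, and spermidine synthase (SRM) and spermine synthase (SMS) add it. Acetylation by SAT1 starts breakdown and export, SMOX oxidises spermine, and PAOX oxidises the acetylated forms. The antizymes OAZ1 and OAZ2 bind ODC1 protein and deliver it to the proteasome, and AZIN1 binds antizyme in its place. ODC1 is known as a MYC target and is a studied drug target in neuroblastoma with amplified MYCN.

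A few short sequences are shown because they are of the kinds through which this family is known to be controlled. The MYC and MAX proteins recognise the E-box CACGTG, which reads the same on both strands, and it lies in RefSeq promoter windows of ODC1 and SRM. Windows ran from 250 bases before to 50 after a RefSeq start, and 7 of the 10 genes had 1 or more. Both ODC1 matches lie in an intron in GENCODE v29, at -29 and 5 from a second RefSeq start, and the SRM match lies at -199 from its start, upstream of the annotated gene. Capitals mark the E-box, positions are on GRCh38, and all 3 stretches are on the minus strand.
ODC1, first E-box, chr2:10448024-10448053: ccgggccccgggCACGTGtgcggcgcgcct
ODC1, second E-box, chr2:10447990-10448019: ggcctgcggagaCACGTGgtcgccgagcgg
SRM, E-box, chr1:11060200-11060229: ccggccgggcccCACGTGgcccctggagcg
The motif was present in 2 of the 10 windows of these genes and in 7.256% of 35116 promoter windows of the same length (2548 windows). A match describes the letters of a window and is not evidence of binding.

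The antizymes are translated across a +1 ribosomal frameshift that polyamines stimulate, so their protein output is set partly after the transcript is made and is not seen in counts. The GENCODE v29 coding models leave out 1 base of the transcript at this point, chromosome 19 position 2271443 in OAZ1 and chromosome 15 position 64691515 in OAZ2. Capitals mark the stop codon of the first frame, which the shift passes over.
OAZ1, chr19:2271428-2271457, plus strand: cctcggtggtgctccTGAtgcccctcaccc
OAZ2, chr15:64691501-64691530, minus strand: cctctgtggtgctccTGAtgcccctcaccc
The pair matched at 29 of 30 bases.

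Total counts per library ran from 5318159 to 7864343, and none of the 3 siRNA groups was distinguishable from siNTC in total (si45 p = 0.77, si46 p = 0.83 and si47 p = 0.71, by two-sided exact permutation). The targeted gene TPX2 had 297 to 359 CPM (counts scaled to a common library size with TMM factors) in siNTC and 62.2 to 121 CPM in the 12 knockdown libraries. Its level was lower in each siRNA group (two-sided exact permutation p = 0.0286, the smallest that 4 against 4 libraries allow). Of the neuroblast markers PHOX2A, HAND2, GATA3, ISL1, DBH and TH, TH alone was low, at 8 to 29 counts. Of the markers, named here after their values were seen, HAND2 rose by 0.23 (edgeR adjusted p = 0.0193) and DBH fell by 0.56 on the log2 scale (adjusted p = 1.27e-05) on the mean of the 3 siRNAs. Among markers of other cells, CD3E was at 0 throughout, COL1A1 had 115 to 347 counts, PTPRC had at most 16, and COL1A2, DCN, PECAM1, CDH5, EPCAM and KRT19 had at most 7.

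The libraries came from a 3' end kit (QuantSeq) that gives about 1 read per transcript, so CPM of different genes were set side by side without division by length. In the siNTC group OAZ1 was the most abundant of the 10 transcripts at 335 ± 25.1 CPM (SD, n = 4), followed by SMS at 314 ± 23.1 and OAZ2 at 253 ± 24.0. SRM at 167 ± 16.6, AMD1 at 159 ± 3.91 and ODC1 at 139 ± 7.04 came next, and AZIN1 followed at 46.9 ± 5.67. The breakdown enzymes were the scarcest, with SAT1 at 7.08 ± 1.36, SMOX at 6.69 ± 1.37 and PAOX at 1.39 ± 0.922 CPM. Neighbours whose 4 control libraries overlapped were OAZ1 and SMS, SRM and AMD1, and SAT1 and SMOX. Together the 10 genes took between 0.135% and 0.159% of each library's counts.

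**Figure D1:**
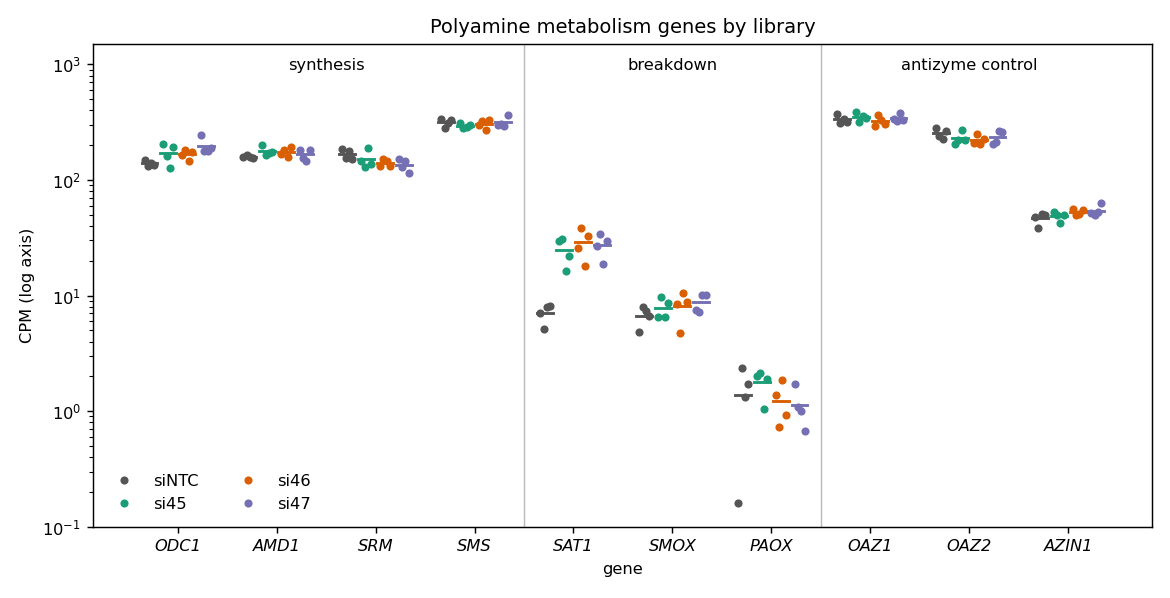
Level of each of the 10 genes in each of the 16 libraries, in CPM on a log axis, coloured by siRNA and ordered by role; short lines are group means. SAT1 sits at 5.16 to 8.15 CPM in siNTC and at 16.5 to 38.6 CPM in the knockdown libraries, while the OAZ1 groups overlap.

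The transcript for the acetyltransferase SAT1 rose under every siRNA, and ODC1 rose by a smaller amount under si47 and on the mean of the 3 siRNAs. Against siNTC, 1 of the 10 genes passed the threshold under si45 (SAT1), 1 under si46 (SAT1) and 2 under si47 (SAT1 and ODC1), by edgeR's quasi-likelihood test with Benjamini-Hochberg adjustment over all genes at 0.05. Across all genes tested, 1.34% passed for si45, 3.4% for si46 and 9.74% for si47. On the mean of the 3 siRNAs 2 passed, again SAT1 and ODC1 and both higher, where 7.14% of all genes passed. The median log2 fold change of the 10 genes on that mean was 0.07, beside a median of -0.001 over all genes. These comparisons share the 4 siNTC libraries.

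**Figure D2:**
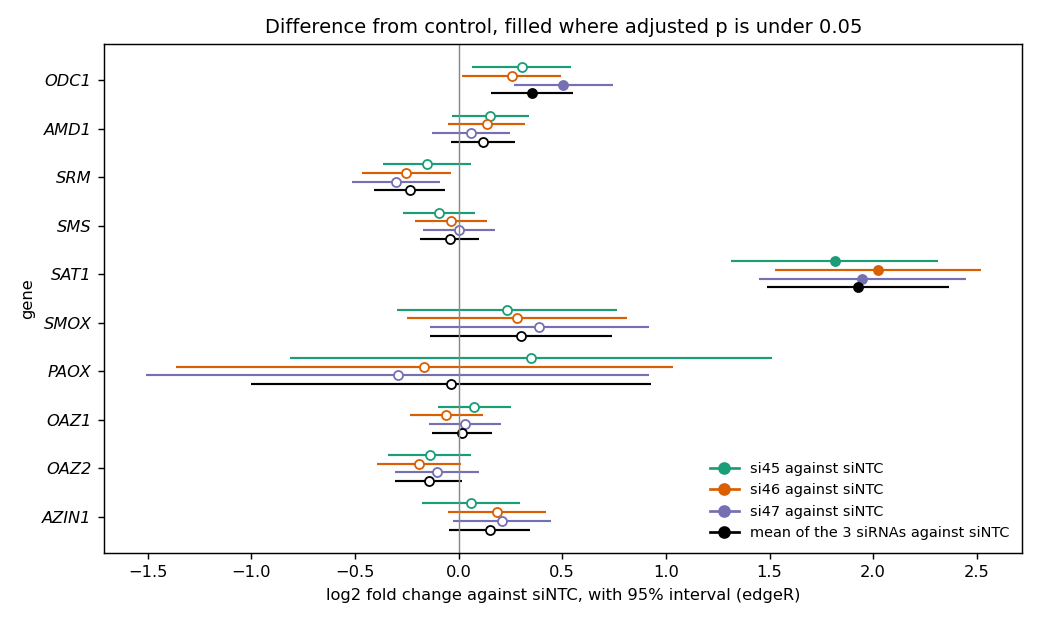
Log2 fold change of each gene against siNTC for si45, si46, si47 and the mean of the 3 siRNAs, with 95% intervals from edgeR; filled points passed the adjusted threshold. SAT1 stands at 1.81 to 2.02 under the 3 siRNAs, and the other 9 genes lie between -0.30 and 0.51.

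SAT1 (ENSG00000130066, chromosome X, 23783173 to 23786226, plus strand, GRCh38) encodes the rate-limiting enzyme of polyamine breakdown. Its level in siNTC replicates 1 to 4 was 7.05, 5.16, 7.94 and 8.15 CPM, from 33 to 47 counts. Under si45 it was 29.8, 30.6, 16.5 and 22.1 CPM. It was 25.6, 38.6, 18.2 and 32.8 CPM under si46, and 26.9, 33.7, 18.8 and 29.6 CPM under si47. All 12 knockdown libraries were above all 4 controls, and replicate 3 was the lowest library of each siRNA group. In bulk RNA, more transcript per cell and more cells that carry it cannot be told apart.

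The log2 fold change of SAT1 was 1.81 (SE 0.243, edgeR adjusted p = 3.76e-05) for si45, 2.02 (SE 0.242, adjusted p = 4.92e-06) for si46 and 1.95 (SE 0.242, adjusted p = 3.93e-06) for si47. On the mean of the 3 siRNAs the difference was 1.93 (SE 0.214, 95% interval 1.49 to 2.37, edgeR adjusted p = 9.28e-07), a 3.81-fold higher level. SAT1 ranked at 23 by p among the 14193 genes in that comparison. No pair of siRNAs was distinguishable in SAT1: the intervals of the log2 difference were -0.65 to 0.23 for si45 minus si46, -0.58 to 0.31 for si45 minus si47 and -0.37 to 0.51 for si46 minus si47. With replicate 3 left out of all 4 groups, an alternative added after seeing the data, the mean log2 fold change was 2.14. Replicate 3 was the lowest SAT1 library of each siRNA group and, at 7.94 CPM, lay above the siNTC mean of 7.08. Leaving it out therefore raises the difference by construction.

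ODC1 (ENSG00000115758, chromosome 2, 10439968 to 10448504, minus strand), the first enzyme of the pathway, was measured at 148, 132, 142 and 135 CPM in siNTC replicates 1 to 4. Under si45 it was 206, 162, 127 and 191 CPM, under si46 it was 163, 180, 147 and 174 CPM, and under si47 it was 243, 178, 178 and 190 CPM. Of the 12 knockdown libraries, 10 were above all controls, and si45 replicate 3 was below all of them. Its change was 0.30 on the log2 scale (SE 0.116, edgeR adjusted p = 0.269) for si45 and 0.26 (SE 0.116, adjusted p = 0.290) for si46, neither past the threshold. It was 0.51 (SE 0.116, 95% interval 0.27 to 0.74, edgeR adjusted p = 0.00474) for si47, a 1.42-fold higher level.

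On the mean of the 3 siRNAs, ODC1 was higher by 0.35 on the log2 scale (SE 0.0967, edgeR adjusted p = 0.0216). That call was lost without siNTC replicate 2, 3 or 4 (adjusted p = 0.0796, 0.0589 and 0.0787), whereas the si47 call was kept whichever single library was left out. Without si45 replicate 3, the si45 difference was 0.42 and passed (edgeR adjusted p = 0.0179), and it also passed with the replicate block (adjusted p = 0.0477) and without replicate 3 of all groups (adjusted p = 0.0223). Replicate 3 was the lowest ODC1 library of si45, so leaving it out raises the si45 difference by construction. The siRNAs were not distinguishable from each other in ODC1 by the adjusted test. The log2 difference of si46 from si47 was -0.25 (95% interval -0.49 to -0.01, edgeR unadjusted p = 0.0385, adjusted p = 0.649).

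SRM (ENSG00000116649, chromosome 1, 11054584 to 11060024, minus strand) makes spermidine from putrescine. Its level was 186, 156, 176 and 151 CPM in siNTC replicates 1 to 4, and 147, 129, 189 and 137 CPM under si45. Under si46 it was 133, 151, 146 and 133 CPM, and under si47 it was 151, 130, 146 and 116 CPM. All but 1 of the 12 knockdown libraries were below all controls, and the exception, si45 replicate 3, was above all of them. The separation was narrow: si46 replicate 2 (151.1 CPM) and si47 replicate 1 (150.9 CPM) lay just under the lowest control (151.3 CPM). The log2 difference was -0.15, -0.25 and -0.30 for the 3 siRNAs in turn and -0.24 on their mean (SE 0.0847, 95% interval -0.41 to -0.06). None of these passed (edgeR adjusted p = 0.644, 0.222, 0.0627 and 0.0854). This call depended on the setting. Replicate 3 of si45 was the highest SRM library of its group, so leaving it out deepens the fall by construction. On the mean, SRM passed without si45 replicate 3 (-0.28, edgeR adjusted p = 0.0136), without replicate 3 of all groups (adjusted p = 0.0394) and with the replicate number as a block (adjusted p = 0.0105). Under si47 it passed with the block (edgeR adjusted p = 0.00664), without the low-count filter (0.0400), and without replicate 3 of si45 (0.0281) or of si47 (0.0467).

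The remaining synthesis enzymes did not pass the test in any comparison with siNTC. AMD1 (ENSG00000123505, chromosome 6, 110874770 to 110895713) ranged from 156 to 165 CPM in siNTC and from 146 to 201 CPM in the knockdown libraries, with a mean log2 difference of 0.12 (95% interval -0.04 to 0.27, edgeR adjusted p = 0.409). SMS (ENSG00000102172, chromosome X, 21940573 to 21994835) ranged from 283 to 334 CPM in siNTC and from 272 to 363 CPM in the knockdown libraries. Its mean log2 difference was -0.04 (95% interval -0.18 to 0.10, edgeR adjusted p = 0.790). The AMD1 ranges overlapped, with 8 of 12 knockdown libraries above all controls and 2 below, and for SMS 1 was above and 2 were below.

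The oxidases were measured from few counts. SMOX (ENSG00000088826, chromosome 20, 4120980 to 4187747) had 26 to 67 counts per library, at 4.81 to 7.98 CPM in siNTC and 4.73 to 10.4 CPM in the knockdown libraries. Its mean log2 difference was 0.30 (95% interval -0.14 to 0.74, edgeR adjusted p = 0.465). PAOX (ENSG00000148832, chromosome 10, 133379234 to 133391694) had 1 to 15 counts, and its mean log2 difference was -0.04 (95% interval -1.001 to 0.927, edgeR adjusted p = 0.978). A change of PAOX within that wide interval was not detectable at this depth.

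**Figure D3:**
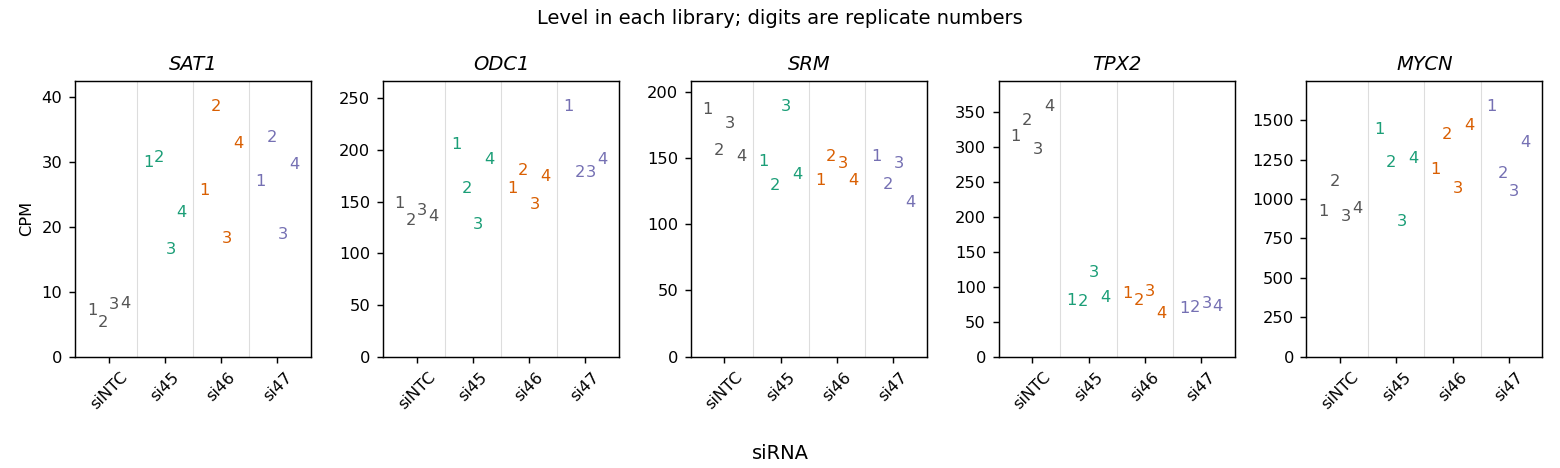
CPM of SAT1, ODC1, SRM, TPX2 and MYCN in each library; each digit is a replicate number, and the y axes start at 0. Replicate 3 is the lowest SAT1 and MYCN library and the highest TPX2 library of each siRNA group. In siNTC, replicate 3 is also the lowest MYCN library, and it is the lowest TPX2 library.

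TPX2 was highest in replicate 3 of each siRNA group, at 121, 93.8 and 76.3 CPM for si45, si46 and si47. The next highest library was at 85.1, 90.9 and 71.3 CPM, so the gap was small in si46 and si47. SAT1 was lowest in replicate 3 of each siRNA group, as was MYCN at 858, 1065 and 1048 CPM. In siNTC, replicate 3 was also the lowest MYCN library, at 891 CPM, and the lowest TPX2 library, at 297 CPM. The next lowest MYCN library was at 920 CPM in siNTC, a small gap, and at 1233, 1190 and 1164 CPM under si45, si46 and si47. MYCN itself had a mean log2 difference of 0.38 from siNTC that did not pass (SE 0.129, edgeR adjusted p = 0.0904). It passed without replicate 3 of all groups (0.44, edgeR adjusted p = 0.00108), a setting added after the data were seen. It also passed without replicate 3 of si45, si46 or si47 alone (edgeR adjusted p = 0.00657, 0.0429 and 0.0474). Replicate 3 was the lowest MYCN library of each siRNA group, so leaving it out there raises the difference by construction. MYCN also passed without the low-count filter (edgeR adjusted p = 0.00819) and with the replicate block (0.00896). Under si45, si46 and si47 its log2 difference was 0.31, 0.41 and 0.42, none past the threshold (edgeR adjusted p = 0.469, 0.198 and 0.105). Under si46 and si47, but not si45, it passed without the filter (edgeR adjusted p = 0.0343 and 0.0152). The same held with only the groups compared (0.00659 and 0.0127). The part of TPX2 level, MYCN level or of replicate 3 in the SAT1 and ODC1 differences was not tested.

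None of the 3 antizyme control genes passed the test against siNTC. OAZ1 (ENSG00000104904, chromosome 19, 2269509 to 2273490) ranged from 313 to 369 CPM in siNTC and from 292 to 390 CPM in the knockdown libraries, with a mean log2 difference of 0.02 (95% interval -0.13 to 0.16, edgeR adjusted p = 0.935). OAZ2 (ENSG00000180304, chromosome 15, 64687573 to 64703281) ranged from 226 to 280 CPM in siNTC and from 204 to 272 CPM in the knockdown libraries, with 8 of 12 below all controls and a mean log2 difference of -0.14 (95% interval -0.31 to 0.02, edgeR adjusted p = 0.309).

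AZIN1, which shields ODC1 by binding antizyme, ranged from 38.6 to 51.1 CPM in siNTC and from 42.7 to 62.6 CPM in the knockdown libraries. Its mean log2 difference was 0.15 (95% interval -0.04 to 0.35, edgeR adjusted p = 0.398). Whether counting used strand is not given in the sources used here. The antisense gene AZIN1-AS1 had 4 to 23 counts and SNORA80B, inside ODC1 on the same strand, had 5 to 72. Pseudogene copies that carry the symbols of these genes held 1 count in all, over 10 copies and 16 libraries. Copies under other names were not searched.

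The balance between the enzyme transcript and that of its antizyme was described as ODC1 counts per 100 OAZ1 counts, without a test. It was 40.1, 42.2, 41.6 and 42.3 in siNTC replicates 1 to 4. It was 52.7, 50.9, 35.6 and 55.3 under si45, 55.8, 49.9, 44.1 and 57.7 under si46, and 71.9, 54.8, 47.2 and 57.8 under si47. All knockdown libraries but si45 replicate 3 were above the control range, and replicate 3 was again the lowest of each siRNA group.

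No member differed between any pair of siRNAs by the adjusted test (0 of 10 in each by edgeR and by DESeq2). The share of all genes that passed was 0.0282% where si45 met si46 and 0.169% where it met si47, and 0.0493% for the pair of si46 with si47. At an unadjusted edgeR p under 0.05 the members numbered 0, 0 and 1, the last being ODC1, beside 4.1%, 10.4% and 7.29% of all genes.

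Beyond the core, 27 genes of the wider pathway were listed, and 21 passed the filter on low counts. They cover relatives of the core enzymes, arginine and ornithine metabolism, supply and salvage of S-adenosylmethionine, the hypusine modification of eIF5A (made from spermidine) and transport. None passed under si45, under si46 or on the mean of the 3 siRNAs by edgeR, where 1, 4 and 4 had an unadjusted p under 0.05, beside 11.4%, 15% and 20.4% of all genes. Under si47, 1 rose and 1 fell of 21, a share near the 9.74% of all genes called. The median log2 difference of the list on the mean of the 3 siRNAs was 0.05. The untested genes were OAZ3, AZIN2, ARG1, AGMAT, MAT1A and SLC12A8, and ARG1 was at 0 in all libraries.

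AHCY, which hydrolyses S-adenosylhomocysteine, was 69.9, 69.4, 74.1 and 72.5 CPM in siNTC and 84.4, 104, 81.7 and 97.4 CPM under si47, without overlap. It was higher by 0.36 on the log2 scale (SE 0.0973, edgeR adjusted p = 0.0134), and without si47 replicate 2 the call was lost (adjusted p = 0.0784). Under si45 and si46 the AHCY log2 difference from siNTC was 0.06 and 0.02 (edgeR adjusted p = 0.881 and 0.946). The log2 difference of si46 from si47 was -0.34 (edgeR unadjusted p = 0.00145, adjusted p = 0.283). ATP13A3, a polyamine transporter, was 87.7, 93.8, 102 and 84.5 CPM in siNTC and 72.0, 66.0, 88.9 and 56.4 CPM under si47, where replicate 3 lay within the control range. It fell by 0.38 on the log2 scale (SE 0.120, edgeR adjusted p = 0.0403). That call was lost without any of siNTC replicates 1, 2 and 3 or si47 replicates 1, 2 and 4 (adjusted p = 0.0581, 0.0895, 0.128, 0.0836, 0.114 and 0.176). The ATP13A3 log2 difference was -0.16 under si45, -0.35 under si46 and -0.30 on the mean, none past the threshold. On the mean it passed without the low-count filter (edgeR adjusted p = 0.0275). It also did without replicate 3 of si45, si46, si47 or all groups (0.0455, 0.0212, 0.0128 and 0.0191). Under si46 it passed without si46 replicate 3 (0.0251). Replicate 3 was the highest ATP13A3 library of si46 and si47, so its loss there deepens the fall by construction.

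**Figure D4:**
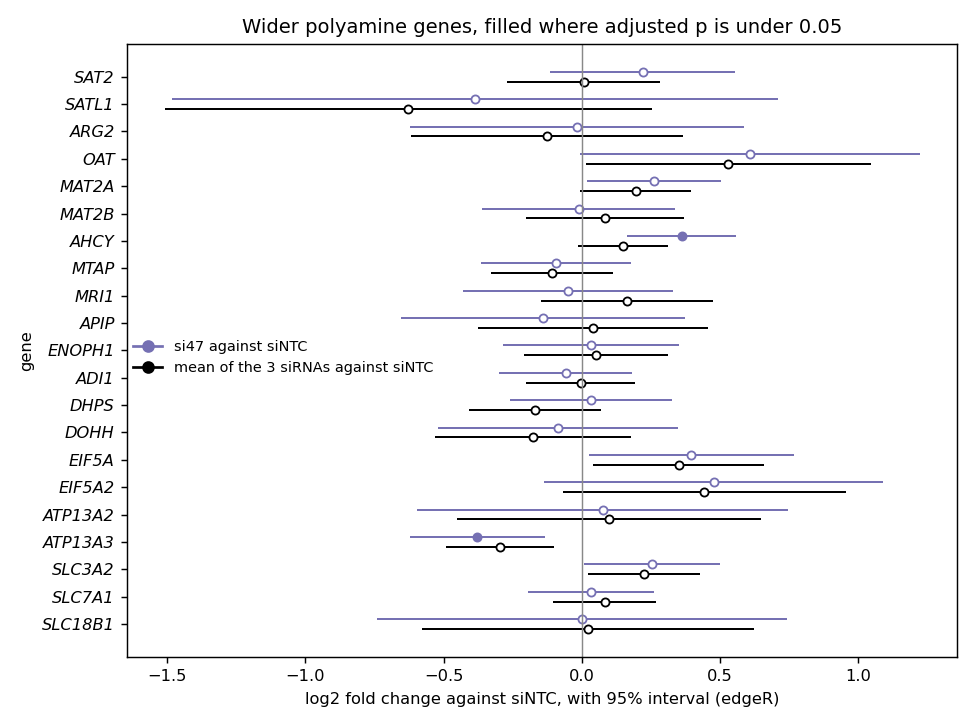
Log2 difference from siNTC of the 21 tested genes of the wider list, for si47 and the mean of the 3 siRNAs, with 95% intervals from edgeR; filled points passed the adjusted threshold. AHCY (0.36) and ATP13A3 (-0.38) are filled for si47, and no gene is filled for the mean.

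Genes whose pattern was most like that of SAT1 and ODC1 over the 16 libraries were found by the root mean square difference in log2 CPM from the siNTC mean, among 11797 genes. Among the closest to SAT1 were JUN (0.280) and PLK3 (0.302), beside a median of 1.66 over the genes compared. The closest to ODC1 were OST4 (0.114), DAP3 (0.124) and SLC35D1 (0.126), beside a median of 0.444. JUN encodes a subunit of the AP-1 transcription factor, and PLK3 a stress-responsive polo-like kinase. These are the nearest of many genes by construction, and carry no test.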

How the data were processed

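RNA was measured in 16 IMR32 libraries. The authors deposited raw counts per Ensembl gene, with no normalization. The submitters' processing notes name GRCh38, FastQC 0.11.7, STAR 2.7.2b, edgeR 3.36.0 and limma 3.50.3 without their roles. The counter, annotation, strand setting and handling of PCR duplicates are not given in the sources used here, so duplicates may add to replicate spread. The siRNA named in each label set its group.

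Counts were tested in R 4.3.3 with edgeR 4.0.16: filterByExpr (minimum count 10, minimum total 15), TMM, and a robust quasi-likelihood fit of 4 group means over all libraries. Benjamini-Hochberg adjustment ran over 14193 genes, with a threshold of 0.05. SE is the log2 fold change divided by the root of F. TPX2 was tested by exact permutation of log2(CPM + 1). Symbols were matched for 58434 identifiers.

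All 10 members, TPX2 and MYCN were named whatever their values, wider genes where a siRNA comparison with siNTC passed, and the 3 genes most like each of the 2 members with the lowest p among genes with a mean count of at least 20. Some items under these rules and in the marker lists are not reported here. Members and lists were chosen with earlier results of these data known.

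Replicates were compared by a chi-square statistic, 4.36 to 9.80 per degree of freedom over 24 pairs, so none agreed within sampling noise. Deviations of same-numbered libraries correlated positively in every pair of every 2 groups (0.0188 to 0.247). They correlated over 0.1 in all pairs for si45 with si47 (0.120 to 0.242) and for no other 2 groups. This pairing comes from the values, not the labels. On simulated counts of 13927 genes with log2 changes of 1, edgeR recovered 68.5%, 71% and 68.5% of changed genes for si45, si46 and si47, and 75% for the mean, with 9, 8, 9 and 7 false calls. The simulation held no replicate effect. Smaller changes, as measured for every member but SAT1, were not simulated, so these shares do not apply to them. Alternatives were RLE factors, DESeq2 1.42.0, other filters, only the groups compared, a replicate block, a threshold of 0.1 and leaving out libraries. Promoter sequences came from RefSeq (GRCh38.p14) and gene models from GENCODE v29.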

Additional observations from a re-analysis of the deposited data

Results flagged for a closer look

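In 3 groups 1 library lay far from the other 3, with a gap that, as a share of the group's range, was past Dixon's 95% critical value for 4 values. SMS was at 363 CPM in si47 replicate 4, with the others at 295 to 305 CPM. ATP13A3 was at 89.4 CPM in si46 replicate 3, with the others at 65.3 to 67.5 CPM. TPX2 was at 121 CPM in si45 replicate 3, with the others at 79.4 to 85.1 CPM. Over the 56 groups examined, chance gives about 2.8 such libraries.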

How the results depend on the processing

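SAT1 passed in each comparison with siNTC under every alternative run. For si45, 2 members passed in place of 1 (ODC1 added) with the replicate block and without replicate 3 of all groups, and leaving out 1 library gave 1 to 2. On the mean of the 3 siRNAs, leaving out 1 library gave 1 to 3 members in place of 2, and for si47 2 to 3. With the replicate number as a block, ODC1 under si45 was 0.29 (edgeR adjusted p = 0.0477) and SRM passed under si47 (-0.31, adjusted p = 0.00664) and on the mean (-0.24, adjusted p = 0.0105); ATP13A3 also passed under si46 (-0.36) and on the mean (-0.30), and MYCN under si46 (0.40), under si47 (0.41) and on the mean (0.37). The block changed no call of another member. Over all genes the block called 577, 1073, 2198 and 1817 for si45, si46, si47 and the mean in place of 190, 482, 1382 and 1014, and 33, 398 and 108 for the siRNA pairs in place of 4, 24 and 7. Without the low-count filter 356 genes were called for si45, and 14, 166 and 44 for the pairs; DESeq2 called 11, 150 and 33 for the pairs. Leaving out 1 library gave 97 (si45 replicate 1) to 406 (si45 replicate 3) calls over all genes for si45, 252 to 579 for si46, 932 to 1664 for si47 and 629 to 1388 for the mean. Without replicate 3 of all groups, 379, 623, 1619 and 1336 genes were called for si45, si46, si47 and the mean. A threshold of 0.1 gave 306, 751, 1999 and 1547 for si45, si46, si47 and the mean, and added SRM to the members for si47 and the mean. SRM under si47 passed without the filter (adjusted p = 0.0400).

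Directions that reversed were all of differences that had not passed. DESeq2 gave -0.000228 for SMS under si47. Without replicate 3 of all groups, SMS under si46 was 0.00807, and OAZ1 was -0.0146 under si47 and -0.00336 on the mean. Leaving out 1 library gave ranges across 0 for PAOX under si45 (-0.0286 to 0.739), si46 (-0.54 to 0.22), si47 (-0.67 to 0.10) and the mean (-0.41 to 0.35), for SMS under si46 (-0.0831 to 0.0174) and si47 (-0.0726 to 0.0344), for OAZ1 under si47 (-0.0212 to 0.0787) and on the mean (-0.0129 to 0.0634), for AZIN1 under si45 (-0.0211 to 0.117) and for AHCY under si46 (-0.00974 to 0.0567). The cause was not tested. Counts limit PAOX most.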
